A study of Mus musculus with 102 samples.

Results

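The paraventricular hypothalamic nucleus (Pa) was compared with the tissue around it in the medial hypothalamus. The Pa arrays were chosen by their titles, as were the 6 reference arrays, which came from the dorsal subparaventricular zone (SPa dorsal), the dorsomedial hypothalamic nucleus (DM) and the medial preoptic area (MPA). The series covered 51 regions of the central nervous system with 2 arrays each, of which Pa was 1. All animals were male Balb/c mice of 7 to 8 weeks without any genetic change or drug. Each array held RNA from tissue punches of 0.5 mm that were pooled over many mice and over 6 time points spaced by 4 h, so that a value is an average over 1 day. The labels state that tissue was taken under a light/dark cycle or in constant darkness, without saying which applied to which array. A punch is a small cylinder and can hold cells of adjoining nuclei.

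The Pa is the main neuroendocrine output of the hypothalamus. Its magnocellular neurons make vasopressin and oxytocin and send them down axons to the posterior pituitary, while its parvocellular neurons make releasing hormones such as corticotropin-releasing hormone and thyrotropin-releasing hormone, which reach the anterior pituitary through the median eminence. Other neurons of the Pa project to the brainstem and spinal cord. In development these neurons depend on the transcription factors Sim1, Arnt2, Otp and Pou3f2. The SPa relays output of the circadian clock, the DM takes part in feeding and arousal, and the MPA in reproductive behaviour and body temperature.

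Values are log2 expression values after RMA, on which a difference of 1 is a 2-fold difference. The deposited values ran between 3.91 and 14.84 on the 8 arrays compared here, and the arrays of 1 region correlated at r between 0.9943 and 0.9973 over 45,037 probe sets. Differences were tested with limma on all 96 arrays of 48 regions, and adjusted p is Benjamini-Hochberg over all probe sets, with a threshold of 0.05. Pa, SPa dorsal, DM and MPA were sampled in different periods, so sampling period and region cannot be told apart among them. The 3′ minus 5′ difference of the β-actin control probe sets, a measure of RNA integrity, was 0.92 and 0.98 on the Pa arrays, against 1.91 and 1.65 in SPa dorsal, 0.55 in both DM arrays, and 0.60 and 0.51 in MPA. It ran between 0.31 and 1.91 on the 96 arrays, with a median of 0.93. SPa dorsal thus held the highest value of the 96 arrays, and its part in the differences from SPa dorsal was not tested. The first Pa array stood apart in Ttr, the transthyretin gene that marks choroid plexus, with 12.64 on the first and 9.72 on the second Pa array, against 9.09 to 9.95 on the 6 reference arrays. In pooled tissue, fewer cells of a type and less RNA per cell cannot be told apart.

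Relative to the mean of the 3 regions, 1706 probe sets were higher in Pa (3.79% of those tested) and 2959 were lower (6.57%). Most of these differences were small, and 42 of the higher and 54 of the lower probe sets exceeded 1 on the log2 scale. Without the first Pa array these counts were 375 and 598, without the second 599 and 1389, and without the first DM array 994 and 1966. Against single regions, 3155 were higher (7.01%) and 3935 lower (8.74%) than in SPa dorsal, 3694 higher (8.20%) and 5092 lower (11.3%) than in DM, and 1605 higher (3.56%) and 2788 lower (6.19%) than in MPA. Probe sets higher than in all 3 regions numbered 157 (0.349%), and 267 were lower than in all 3 (0.593%). These counts were 94 and 47 without the first Pa array, 74 and 145 without the second, 83 and 183 without the first SPa dorsal array, 76 and 125 without the first DM array, 101 and 119 without the first MPA array, and 74 and 124 without the second MPA array. The 30 genes that led the higher and lower sides passed against the mean of the 3 regions with any 1 of the 8 arrays left out. Those 30 genes were picked on these same arrays by size and by passing every contrast, which made that outcome likely. The error in this fit is the spread between the 2 arrays of a region, pooled over 48 regions. An SE thus depends little on how far apart the 2 Pa arrays of a given gene lay. For Meis2 the SD of the Pa arrays was 0.563, and the SE of the difference was 0.155. In a comparison of the 2 Pa arrays with the 6 others as one group, which counts the differences among SPa dorsal, DM and MPA as error, 1 probe set was higher (Meis2, adjusted p = 0.0146 by limma) and 1 was lower (Gpr50, adjusted p = 0.0146). That comparison takes the 2 arrays of a region as independent, and with region as a random block Gpr50 passed (adjusted p = 0.0161) and Meis2 did not. At an unadjusted p under 0.05 by limma the comparison without the block had 2295 higher (5.10% of probe sets) and 2370 lower (5.26%). With region as a random block these were 506 (1.12%) and 873 (1.94%).

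The genes higher in Pa than in the mean of its neighbours included 4 secreted peptides known from it or its border (Avp, Crh, Ucn3 and Oxt) and its transcription factors Otp, Sim1 and Pou3f2. For 4 of these genes, the 250 bases before the transcript start are shown from RefSeq (GRCm38.p6). Avp and Oxt were taken because these genes are neighbours on 1 chromosome and differed together. Ucn3 and Sim1 were taken because Pa had their highest level of 48 regions, for Sim1 with 1 of its 2 probe sets. Each is written 5′ to 3′ on the strand of its gene. Capitals mark matches on either strand to AGGTCA, the half-site of many nuclear receptors, to the E-box CACGTG, to the cAMP response element TGACGTCA and to the octamer ATGCAAAT, which POU factors bind. These motifs do not overlap here.
Avp, chr2:130582589-130582838, minus strand: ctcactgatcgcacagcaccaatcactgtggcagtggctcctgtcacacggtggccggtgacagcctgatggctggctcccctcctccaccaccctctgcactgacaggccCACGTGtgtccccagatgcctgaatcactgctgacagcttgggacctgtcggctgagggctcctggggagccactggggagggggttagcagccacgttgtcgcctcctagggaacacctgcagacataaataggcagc
Oxt, chr2:130575919-130576168, plus strand: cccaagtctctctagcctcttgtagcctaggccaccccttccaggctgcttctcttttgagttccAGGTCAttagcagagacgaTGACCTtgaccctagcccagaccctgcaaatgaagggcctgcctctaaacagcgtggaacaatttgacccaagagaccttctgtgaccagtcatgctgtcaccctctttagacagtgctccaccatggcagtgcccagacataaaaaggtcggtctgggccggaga
Ucn3, chr13:3945350-3945599, minus strand: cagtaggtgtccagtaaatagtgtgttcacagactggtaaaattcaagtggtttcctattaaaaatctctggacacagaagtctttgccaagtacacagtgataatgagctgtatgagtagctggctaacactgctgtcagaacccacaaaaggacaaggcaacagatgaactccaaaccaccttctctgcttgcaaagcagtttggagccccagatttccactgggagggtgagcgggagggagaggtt
Sim1, chr10:50895401-50895650, plus strand: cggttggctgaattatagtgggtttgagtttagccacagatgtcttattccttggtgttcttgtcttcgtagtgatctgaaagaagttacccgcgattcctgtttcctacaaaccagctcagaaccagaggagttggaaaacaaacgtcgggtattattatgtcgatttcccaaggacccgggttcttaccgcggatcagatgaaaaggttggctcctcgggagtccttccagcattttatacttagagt
The window before Avp held 1 E-box, and that before Oxt held 2 half-sites of opposite orientation. The windows before Ucn3 and Sim1 held no match. Among 32,851 windows of this length, 14.0% held AGGTCA, 6.02% CACGTG, 1.55% TGACGTCA and 1.60% ATGCAAAT. Of the 30 genes with the largest differences, 25 had an entry in the promoter table.

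Avp, which encodes vasopressin, showed the largest difference of all probe sets tested. It had 14.24 and 13.75 on the Pa arrays, against 7.54 and 7.76 in SPa dorsal, 7.12 and 7.05 in DM, and 12.10 and 12.50 in MPA. Both Pa arrays lay above all 6 others, and MPA stood far above SPa dorsal and DM. The difference from the mean of the 3 regions was 4.98 ± 0.17 (SE, adjusted p = 1.57e-30 by limma), made up of 6.34 from SPa dorsal, 6.91 from DM and 1.70 from MPA. Among the 48 regions the Pa level was second to the supraoptic nucleus (SO), the other magnocellular nucleus, whose mean was 14.38. The arcuate nucleus (Arc), with 13.07, came next among the hypothalamic regions.

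Oxt, which encodes oxytocin, had 14.84 and 14.28 in Pa, against 10.19 and 10.14 in SPa dorsal, 10.13 and 10.05 in DM, and 14.26 and 14.18 in MPA. On the first Pa array it was the brightest of all probe sets, and on the second it was in place 3. Its Pa level was the highest of the 48 regions. The difference from the mean of the 3 regions was 3.06 ± 0.15 (SE, adjusted p = 1.61e-22 by limma), but that from MPA alone was 0.34 ± 0.19 and did not pass (adjusted p = 0.252). Oxt lay near the top of the scale in Pa and MPA. The highest value of any probe set on the 8 arrays was between 14.55 and 14.84. Whether the scale compressed a difference between Pa and MPA was not tested.

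Crh, the start of the stress hormone axis, had 9.12 and 9.05 in Pa, against 4.42 and 4.37 in SPa dorsal, 7.55 and 6.61 in DM, and 7.35 and 7.05 in MPA. All 6 reference arrays were lower, and SPa dorsal lay near the low end of the scale. The difference was 2.86 ± 0.28 (SE, adjusted p = 6.00e-11 by limma). Of the 12 hypothalamic regions Pa had the highest Crh, followed by the lateral hypothalamus (LH) with 8.89, and over all 48 regions it ranked in place 3.

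Ucn3 encodes urocortin 3, a ligand of the type 2 corticotropin-releasing hormone receptor that is known from the perifornical tissue beside the Pa. It had 8.36 and 8.12 in Pa, against 7.31 and 7.05 in SPa dorsal, 6.86 and 6.96 in DM, and 7.00 and 7.10 in MPA. The 6 reference arrays lay close together below Pa, and the difference was 1.20 ± 0.10 (SE, adjusted p = 1.36e-12 by limma). No other region of the 48 reached the Pa level, the nearest being the anterior amygdala with 7.91.

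**Figure D1:**
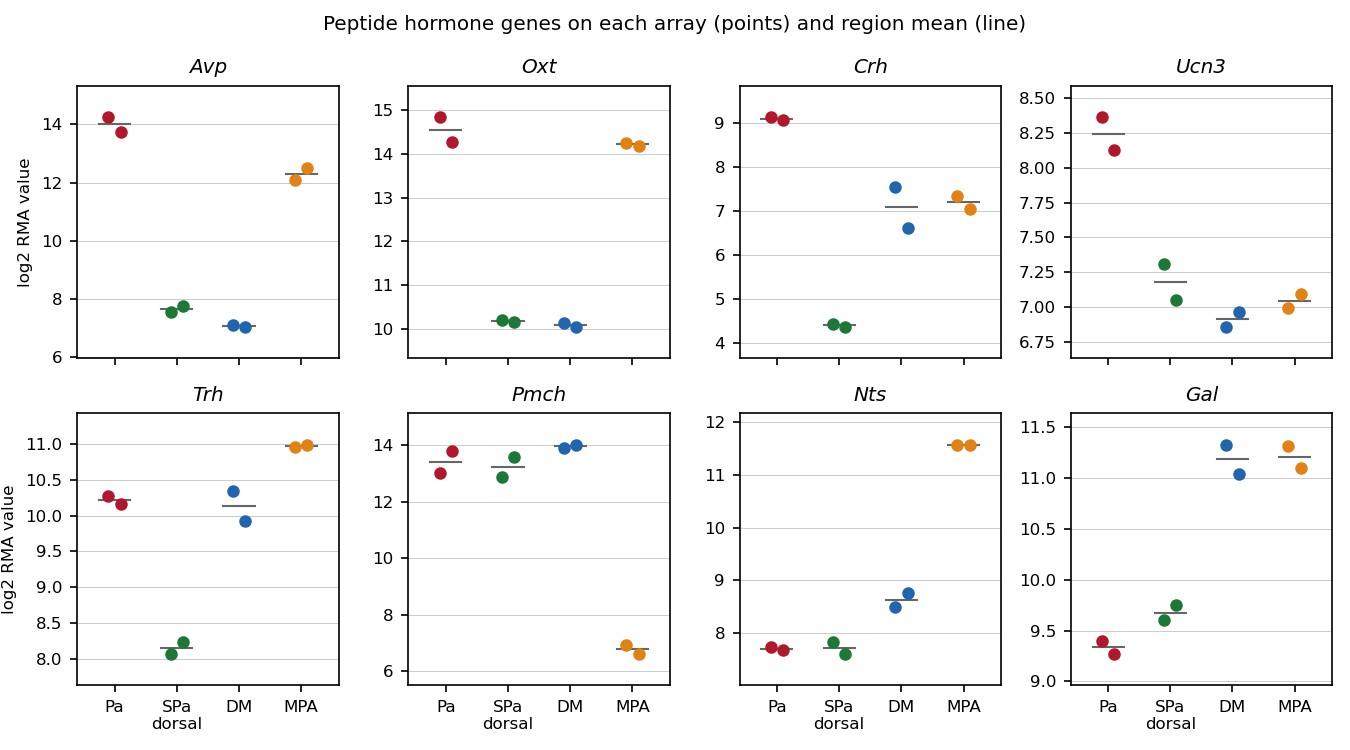
Log2 RMA value (vertical axes, separate scale for each gene) of 8 peptide genes on the 2 arrays of Pa, SPa dorsal, DM and MPA (points), with the region mean (line). Avp, Crh and Ucn3 were above all 6 reference arrays in Pa, Oxt reached 14.26 and 14.18 in MPA, Trh was highest in MPA, and Pmch was low in MPA alone.

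Of 21 measured hormone and releasing factor genes, 6 were higher in Pa and 4 were lower, and their median difference was 0.09, against -0.01 over the 18,193 genes with 1 probe set each, of which 3.24% were higher and 8.97% lower. Against single regions, 10 were higher than in SPa dorsal (5.70% of genes) and 1 was lower (11.7%), 6 were higher (8.04%) and 6 lower (14.0%) than in DM, and 3 were higher (3.50%) and 9 lower (7.35%) than in MPA. Of all 111 named probe sets that passed against the mean, 53 lost the call with at least 1 of the 8 arrays left out. Kcnh1 lost it in 7 of the 8 cases, Fezf2, Kl and Ptprn2 in 6, Cckbr, Htr7 and Impact in 5, and Fa2h, Ptprn and Slc32a1 in 4. Besides Avp, Oxt, Crh and Ucn3, the higher genes were Trh and Agt, which encodes the precursor of angiotensin. Trh had 10.27 and 10.16 in Pa, against 8.08 and 8.25 in SPa dorsal, 10.34 and 9.93 in DM, and 10.95 and 10.99 in MPA. It was 2.06 ± 0.16 above SPa dorsal, 0.09 ± 0.16 from DM (adjusted p = 0.735) and fell by 0.75 relative to MPA (adjusted p = 0.00123 by limma), so its higher value against the mean (0.46 ± 0.13, adjusted p = 0.0155) came from SPa dorsal. Agt was higher by 0.47 ± 0.14 (adjusted p = 0.0200), but passed against DM only (0.68 ± 0.17, adjusted p = 0.00279 by limma). Its differences of 0.27 from SPa dorsal and 0.46 from MPA did not pass (adjusted p = 0.307 and 0.0712). The lower genes were Nts, Gal, Cck and Adcyap1. Nts, which encodes neurotensin, had 7.73 and 7.68 in Pa, against 7.84 and 7.61 in SPa dorsal, 8.50 and 8.77 in DM, and 11.58 on both MPA arrays. Gal, which encodes galanin, had 9.40 and 9.27 in Pa, against 9.60 and 9.75 in SPa dorsal, 11.33 and 11.04 in DM, and 11.31 and 11.09 in MPA. Their differences from SPa dorsal, -0.02 and -0.34, did not pass (adjusted p = 0.975 and 0.104), the Nts difference of -1.61 ± 0.21 resting mainly on MPA and the Gal difference of -1.35 ± 0.12 on DM and MPA. Adcyap1, the gene of the peptide PACAP, was lower than in each of the 3 regions with both of its probe sets, with differences of -1.78 and -0.92 from their mean. Sst, the somatostatin gene, had 12.21 and 11.86 in Pa, against 10.93 and 10.72 in SPa dorsal, 11.03 and 10.76 in DM, and 12.97 and 13.19 in MPA, and its difference of 0.44 ± 0.24 did not pass (adjusted p = 0.240).

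Of 11 feeding and arousal peptide genes, 1 was higher (Pmch) and 4 were lower (Hcrt, Npvf, Tac2 and Prok2) in Pa, with a median of -0.165, against 3.24% and 8.97% of all genes. Pmch, which encodes melanin-concentrating hormone and is known from neurons of the LH and zona incerta, had 13.01 and 13.79 in Pa, against 12.89 and 13.57 in SPa dorsal, 13.92 and 14.02 in DM, and 6.92 and 6.62 in MPA. Its mean difference of 2.08 ± 0.31 came from MPA alone, since the differences from SPa dorsal (0.17 ± 0.38) and DM (-0.57 ± 0.38) did not pass (adjusted p = 0.825 and 0.287 by limma). Hcrt, the orexin gene, had 7.78 and 8.60 in Pa, against 7.64 and 7.72 in SPa dorsal, 11.16 and 11.04 in DM, and 7.31 and 7.52 in MPA. In Pa it fell by 2.91 relative to DM, but was above SPa dorsal by 0.51 ± 0.15 and above MPA by 0.77 ± 0.15. The first Pa array (7.78) was close to the second SPa dorsal array (7.72), so the excess over SPa dorsal rested mainly on the second Pa array. Npvf, whose peptides act on gonadotropin release, differed by -3.05 from DM, by -1.20 from SPa dorsal and by 0.54 ± 0.12 from MPA. Tac2, the neurokinin B gene, had 7.10 and 7.61 in Pa, against 8.17 and 8.33 in SPa dorsal, 9.68 and 9.66 in DM, and 8.36 and 7.86 in MPA, and was lower than in each of them (-1.32 ± 0.20 from the mean, adjusted p = 9.36e-06). Prok2, a secreted signal of circadian output, was lower than in MPA alone (-1.68 ± 0.13), with -0.07 from SPa dorsal and 0.08 from DM (adjusted p = 0.795 and 0.699). In the arrays labelled LH, Pmch (7.68) and Hcrt (7.54) were lower than in Pa.

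Of 18 genes for peptide processing and the dense core granule, 1 was higher (Pcsk1) and 5 were lower (Chga, Scg2, Pcsk1n, Ptprn and Ptprn2). Their median difference was -0.07, and of all genes 3.24% were higher and 8.97% lower. Region by region, 4 were higher (5.70% of genes) and 4 lower (11.7%) than in SPa dorsal. Relative to DM 2 were higher (8.04%) and 9 lower (14.0%), and relative to MPA 1 was higher (3.50%) and 2 lower (7.35%). Those lower than in all 3 regions numbered 0, and Ptprn and Ptprn2 passed against DM only. Pcsk1, the prohormone convertase that makes the first cuts in prohormones, had 9.71 and 9.34 in Pa, against 8.04 and 8.10 in SPa dorsal, 9.10 and 9.16 in DM, and 9.33 and 9.03 in MPA. The second Pa array and the first MPA array were nearly equal, and only the difference from SPa dorsal passed (1.46 ± 0.18, adjusted p = 7.67e-09 by limma), although Pa ranked second of 48 after SO. Pam, which amidates vasopressin, oxytocin and other peptides, had its highest level of the 48 regions in Pa, with 8.59 and 8.42, against 8.09 and 7.98 in SPa dorsal, 8.49 and 8.50 in DM, and 8.09 and 7.97 in MPA, but its difference of 0.32 ± 0.12 did not pass (adjusted p = 0.0732). Of 28 genes of protein folding in the endoplasmic reticulum, 1 was higher (Hyou1, a chaperone of the HSP70 family, by 0.43 ± 0.09). Spcs1, a signal peptidase subunit, was the 1 that was lower, by 0.37. That was 3.57% each way, against 3.24% and 8.97% of all genes. Against single regions, 10 of them were higher than in SPa dorsal (5.70% of genes), 1 was higher and 2 were lower than in DM, and 3 were lower than in MPA (7.35%).

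Of 13 transcription factors of the Pa lineage, 5 were higher (Otp, Pou3f2, Sim1, Ebf3 and Fezf2) and 1 was lower (Pou3f3). Their median difference was 0.09, and of all genes 3.24% were higher and 8.97% lower. Like the other lists, this one was chosen with earlier results of these data known. Otp, a homeobox gene that Pa neuroendocrine neurons need, had 11.37 and 11.54 in Pa, against 9.53 and 9.40 in SPa dorsal, 10.53 and 10.42 in DM, and 10.38 and 10.37 in MPA. The groups did not overlap, and the difference was 1.35 ± 0.14 (SE, adjusted p = 1.94e-10 by limma). With this probe set Pa ranked in place 3 of 48, below the median eminence (12.09) and Arc (11.51). The other Otp probe set was also higher (0.70 ± 0.09) and had its highest level of 48 regions in Pa. Sim1, the basic helix-loop-helix factor without which the Pa does not form in mice, had 7.89 and 7.87 in Pa with the probe set that differed more, against 5.64 and 5.62 in SPa dorsal, 6.97 and 7.16 in DM, and 7.06 and 6.92 in MPA. All reference arrays were lower (difference 1.32 ± 0.12, adjusted p = 1.94e-12), and the Pa level was the highest of 48, ahead of SO with 7.73. The other Sim1 probe set was higher by 0.48 ± 0.10 and did not pass against DM (adjusted p = 0.101 by limma). With it Pa ranked in place 2 of 48, at 7.635 against 7.674 in SO. Pou3f2, which acts downstream of Sim1, had 9.59 and 9.69 in Pa, against 8.69 and 8.76 in SPa dorsal, 8.71 and 8.82 in DM, and 8.95 and 9.28 in MPA, and was higher than in each region (0.77 ± 0.12, adjusted p = 9.36e-06). Arnt2, the dimer partner of Sim1, had 11.13 and 11.12 in Pa, against 10.74 and 10.83 in SPa dorsal, 11.11 and 11.15 in DM, and 10.76 and 10.54 in MPA, and did not pass (0.27 ± 0.10, adjusted p = 0.0572). Ebf3 was 1.98 above SPa dorsal and 1.96 above MPA, but fell by 1.42 relative to DM. Fezf2, with 6.48 and 6.49 in Pa, was higher by 0.46 ± 0.15 (adjusted p = 0.0467) and did not pass against SPa dorsal (adjusted p = 0.0682) or MPA (adjusted p = 0.228).

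Meis2, a homeobox cofactor, had nearly the same difference from each of the 3 regions. It had 8.56 and 9.36 in Pa, against 6.57 and 6.81 in SPa dorsal, 6.80 and 6.52 in DM, and 6.84 and 6.60 in MPA. The 6 reference arrays stayed within a narrow band, the difference was 2.27 ± 0.15 (SE, adjusted p = 2.00e-16 by limma), and all 4 Meis2 probe sets were higher in Pa. Pa was not a site of high Meis2 in the series, ranking in place 28 of 48, far below the anterior olfactory bulb with 12.60. Among 37 measured transcription factors known for hypothalamic nuclei, Meis2 included, 4 were higher and 6 lower (median 0.01), against 3.24% and 8.97% of genes. The other higher ones were Zic1, Vax1 and Six3. Zic1 had 10.97 and 11.10 in Pa, against 8.83 and 8.46 in SPa dorsal, 8.57 and 8.36 in DM, and 11.47 and 12.11 in MPA, so that it was above SPa dorsal and DM but below both MPA arrays. The lower ones were Nr5a1, Nr0b1, Fezf1, Hmx2, Hmx3 and Lhx6. Nr5a1, which specifies the ventromedial nucleus (VMH), had 6.74 and 6.67 in Pa, against 9.18 and 9.26 in SPa dorsal, 6.44 and 6.57 in DM, and 6.49 and 6.66 in MPA, and Nr0b1 and Fezf1 were likewise high in SPa dorsal alone. Fezf1 fell by 2.80 relative to SPa dorsal but was above DM by 0.90 ± 0.15 (adjusted p = 1.14e-05) and above MPA by 0.66 ± 0.15 (adjusted p = 0.00249). The SPa dorsal arrays thus carried genes known for the VMH, whose own Nr5a1 mean was 8.49. Hmx2 and Hmx3, which mark developing hypothalamic neurons that later make growth hormone-releasing hormone, fell by 0.73 and 0.81 in Pa, and DM and MPA lay above SPa dorsal in both.

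**Figure D2:**
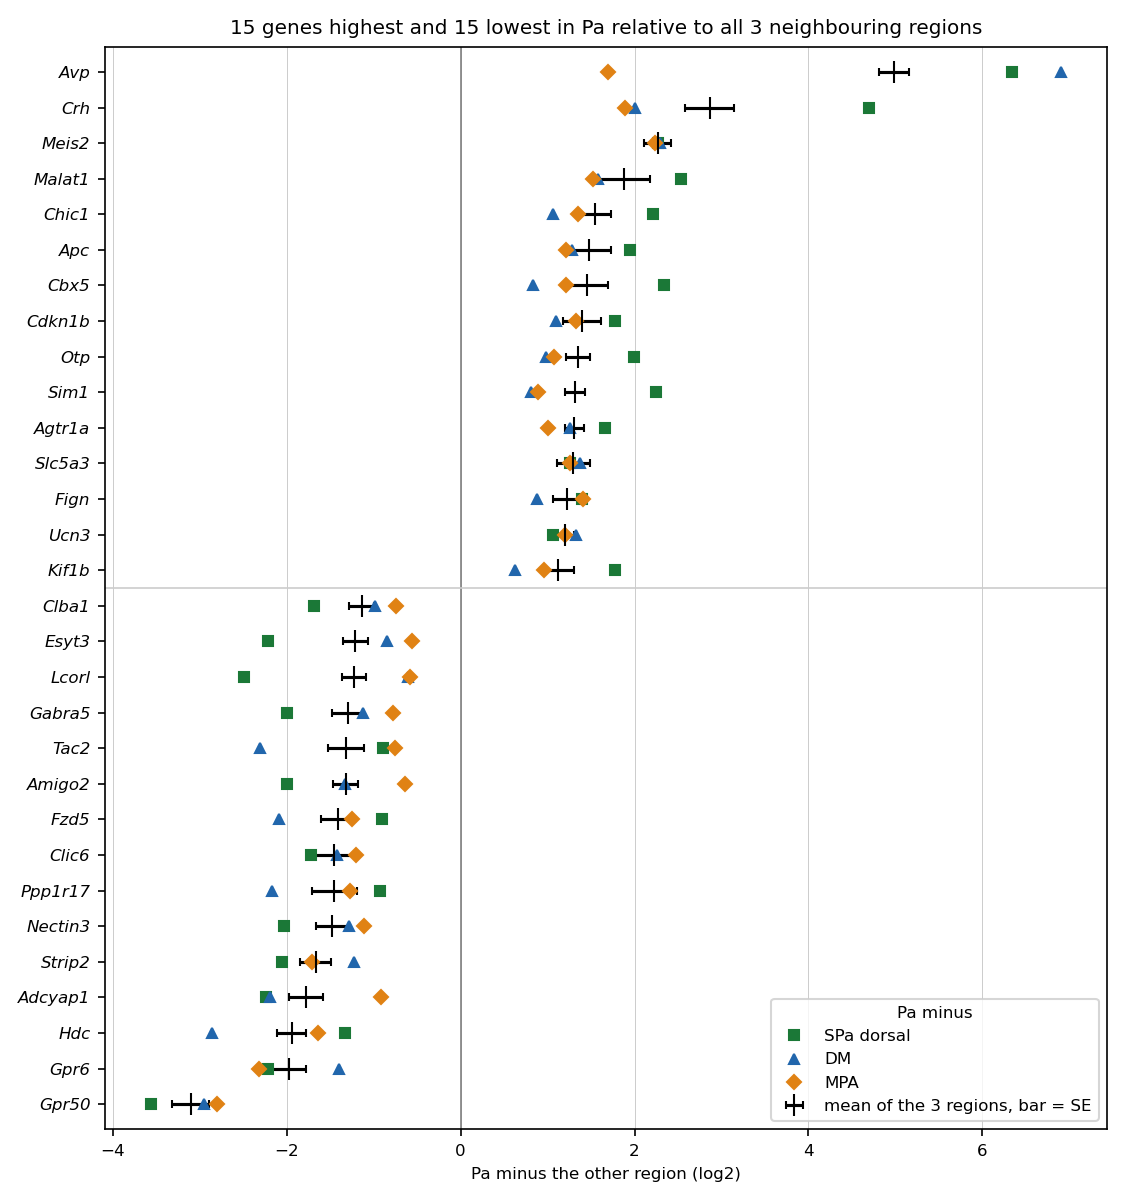
Difference of Pa from each of SPa dorsal (squares), DM (triangles) and MPA (diamonds) and from their mean (tick, bar = SE) on the log2 scale (horizontal axis) for the 15 genes most higher and the 15 most lower in Pa than in all 3 regions (vertical axis). Meis2 and Ucn3 differed by about the same amount from all 3 regions, Avp by 6.34 and 6.91 from SPa dorsal and DM but by 1.70 from MPA.

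Among the receptors for peptides and proteins, Agtr1a had the largest difference. Agtr1a, the type 1a receptor for angiotensin II, had 7.63 and 7.85 in Pa, against 6.12 and 6.04 in SPa dorsal, 6.74 and 6.23 in DM, and 6.71 and 6.76 in MPA. The groups did not overlap (1.31 ± 0.11, adjusted p = 7.31e-13 by limma), and Pa had the highest mean of the 48 regions, followed by the median eminence (ME) with 7.29. Of 51 measured receptors for peptides and proteins, 3 were higher (Agtr1a, Grpr and Cckar) and 3 were lower (Cckbr, Ntsr1 and Hcrtr1). Among the lower ones, Cckbr was higher than in DM. The median of the 51 was 0.04, with 5.88% called each way, against 3.24% and 8.97% of all genes. Grpr, the receptor for gastrin-releasing peptide, was higher than in each region (0.62 ± 0.09), while a second probe set was not called (0.15, adjusted p = 0.148). Cckar, a cholecystokinin receptor, had 7.19 and 7.74 in Pa, against 5.47 and 5.66 in SPa dorsal, 6.49 and 6.47 in DM, and 7.58 and 8.03 in MPA, and so did not separate Pa from MPA. The vasopressin receptor Avpr1a, the oxytocin receptor Oxtr and the type 1 and 2 receptors Crhr1 and Crhr2 were not called, with differences of -0.06, 0.09, 0.01 and 0.21. Of 13 steroid and thyroid hormone genes, 0 were higher by limma, also at an unadjusted p under 0.05. Lower were 4 (Pgr, Thra, Nr1d1 and Dio2), against 8.97% of all genes, and the median of the 13 was -0.155. With other probe sets Dio2 differed by 0.30 and 0.17 and was not called. The glucocorticoid receptor Nr3c1, through which corticosterone restrains Crh neurons, had a difference of -0.12 ± 0.12 (adjusted p = 0.564).

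Relative to SPa dorsal and DM, a GABA gene was higher and the glutamate transporter was lower in Pa, and neither passed against MPA. Slc17a6, the vesicular glutamate transporter of most hypothalamic glutamate neurons, had 11.02 and 11.11 in Pa, against 12.41 and 12.48 in SPa dorsal, 12.39 and 12.41 in DM, and 11.12 and 11.02 in MPA. Gad2, which makes GABA, had 12.03 and 12.16 in Pa, against 10.59 and 10.76 in SPa dorsal, 11.36 and 11.20 in DM, and 11.98 and 11.95 in MPA. Slc17a6 fell by 1.38 relative to SPa dorsal and fell by 1.34 relative to DM, and did not pass against MPA (adjusted p = 0.993 by limma). Gad2 was 1.42 ± 0.23 above SPa dorsal and 0.82 ± 0.23 above DM, with 0.13 ± 0.23 from MPA (adjusted p = 0.760). Slc32a1, the vesicular GABA transporter, passed against SPa dorsal only (1.56 ± 0.26). In all, 2 of 20 genes of transmitter synthesis and transport were higher and 2 were lower, against 3.24% and 8.97% of all genes. The second lower one was Hdc, which makes histamine in the tuberomammillary nucleus, with 6.74 and 6.65 in Pa, against 8.10 and 7.94 in SPa dorsal, 9.77 and 9.32 in DM, and 8.37 and 8.29 in MPA for the probe set that differed more. It was lower than in each region with that probe set (-1.94 ± 0.17, adjusted p = 1.26e-12).

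**Figure D3:**
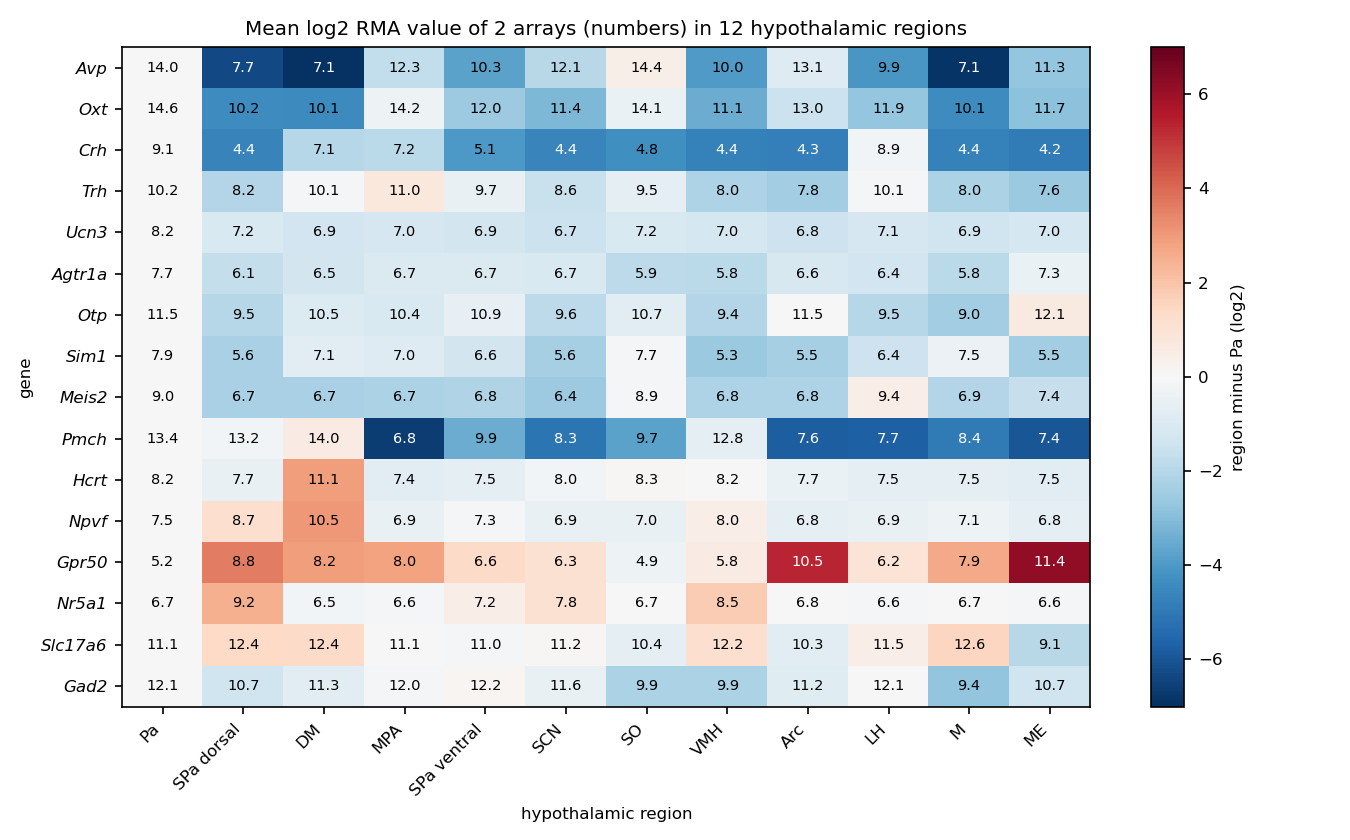
Mean log2 RMA value of 2 arrays (numbers) for 16 genes (rows) in 12 hypothalamic regions (columns, Pa first), coloured by the difference of the region from Pa (red, higher than Pa; blue, lower). Avp was high in SO and Arc as well as Pa, Crh in LH as well as Pa, and Gpr50 was low in Pa and SO against 11.44 in ME.

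The largest deficit in Pa was Gpr50, an orphan receptor related to the melatonin receptors. It had 5.17 and 5.26 in Pa, against 8.58 and 8.97 in SPa dorsal, 8.24 and 8.08 in DM, and 8.06 and 7.95 in MPA. The 3 regions were close to each other and Pa lay far below them (-3.10 ± 0.21, adjusted p = 2.75e-16 by limma), and its other probe set was also lower (-0.82 ± 0.11). Among the hypothalamic regions Gpr50 was highest in ME (11.44) and Arc (10.52), and Pa ranked in place 11 of 12. Gpr6, a constitutively active receptor that raises cAMP and is known from the striatum, had 6.31 and 6.09 in Pa, against 8.51 and 8.31 in SPa dorsal, 7.62 and 7.56 in DM, and 8.70 and 8.32 in MPA. Gabra5, a GABA-A receptor subunit, had 8.14 and 8.25 in Pa, against 10.26 and 10.12 in SPa dorsal, 9.38 and 9.28 in DM, and 9.08 and 8.88 in MPA. Both were lower than in each region, with differences of -1.97 and -1.30 from the mean. The other genes of the lower 15 were Strip2, Nectin3, a cell adhesion molecule, Ppp1r17, a phosphatase inhibitor known from Purkinje cells, Clic6, the Wnt receptor gene Fzd5, the adhesion gene Amigo2, Lcorl, Esyt3 and Clba1, with differences between -1.14 and -1.66. Strip2, with 5.58 and 5.31 in Pa, ranked in place 46 of 48. Each gene of the lower 15 is given by its probe set that differed most. Other probe sets of Amigo2 (0.11), Fzd5 (-0.14), Nectin3 (-0.13 to -0.33) and Lcorl (0.14 and 0.28) were not called.

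Among 36 measured transmitter receptors, 2 were higher (Htr7 and Grik1) and 4 lower (Gabra5, Gabre, Grm7 and Cnr1), against 3.24% and 8.97% of genes. Lower than in DM were 11 (14.0% of genes). Grik1, a kainate receptor subunit, had 7.73 and 7.89 in Pa, against 5.99 and 5.95 in SPa dorsal, 7.57 and 7.65 in DM, and 8.31 and 8.33 in MPA, so that it was above SPa dorsal and below MPA (-0.52 ± 0.17, adjusted p = 0.0361). Htr7, a serotonin receptor, did not pass against DM (adjusted p = 0.963). Cnr1, the cannabinoid receptor, had 9.54 and 9.72 in Pa, against 11.39 and 11.31 in SPa dorsal, 10.35 and 10.10 in DM, and 10.26 and 10.27 in MPA, and differed by -0.98 ± 0.19, while its other probe set did not differ past the threshold (0.03, adjusted p = 0.934 by limma). Of 38 ion channel genes, 1 was higher (Kcnh1, adjusted p = 0.0480) and 7 were lower, against 3.24% and 8.97% of all genes (Kcnq3, Kcna2, Kcnab1, Kcnj5, Cacna1h, Cacna2d1 and Cacna2d3). Cacna2d1, an auxiliary calcium channel subunit, showed the largest of these, with 10.88 and 10.72 in Pa, against 12.61 and 12.65 in SPa dorsal, 11.92 on both DM arrays, and 11.01 and 10.98 in MPA. Of 27 imprinted genes, 2 were higher (Impact and Rasgrf1, by 0.28 and 0.25) and 4 were lower (Asb4, Plagl1, Magel2 and Peg10). These were 7.41% and 14.8%, against 3.24% and 8.97% of all genes. Further probe sets of Impact (-0.07 and -0.04) and Rasgrf1 (0.11 and 0.02) were not called. Magel2, which lies in the Prader-Willi region and is expressed from the paternal copy, had 9.39 and 9.42 in Pa, against 10.07 and 10.35 in SPa dorsal, 10.21 and 10.10 in DM, and 10.11 and 9.91 in MPA, and was lower than in each (-0.72 ± 0.11, adjusted p = 7.26e-06). Asb4, a ubiquitin ligase subunit, had 7.53 and 7.57 in Pa, against 8.67 and 8.79 in SPa dorsal, 10.18 and 10.01 in DM, and 8.38 and 8.12 in MPA. Of 16 immediate early genes, 0 were higher by limma (2 at an unadjusted p under 0.05). Junb and Jund fell by 0.55 and 0.33, a share of 12.5% against 8.97% of all genes.

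The probe sets of a gene did not always move together. Of the 15 genes that led the higher side, Meis2, Otp and Sim1 had several probe sets that were all higher, and Avp, Crh, Agtr1a and Ucn3 had 1 each. In the other 8 (Malat1, Chic1, Apc, Cbx5, Cdkn1b, Slc5a3, Fign and Kif1b) some probe sets were not higher. Apc, the tumour suppressor of the Wnt pathway, had 1 probe set with 7.94 and 8.27 in Pa, against 6.26 and 6.05 in SPa dorsal, 6.98 and 6.68 in DM, and 6.62 and 7.16 in MPA, while its other 3 probe sets differed by -0.17, -0.04 and 0.01. Cdkn1b, the cell cycle inhibitor p27, had 1 probe set higher by 1.40 ± 0.22 and another at -0.48 ± 0.20 (adjusted p = 0.122 by limma). Slc5a3, the transporter that takes up the osmolyte myo-inositol, had 6.87 and 7.56 in Pa, against 5.82 to 6.11 on the 6 reference arrays, with 1 probe set, and differences of -0.25 and 0.10 with 2 others. Cbx5, the gene of heterochromatin protein HP1α, and Kif1b, a kinesin of axonal transport, each had 2 probe sets higher and 1 lower. Malat1, a nuclear long noncoding RNA, had 4 of 7 probe sets higher. For these 8 genes the value therefore depended on the probe set. Many called list members also had a probe set that was not called. Among them were Hyou1, Spcs1, Pgr, Thra, Kcna2, Kcnj5, Kcnab1, Kcnq3, Kcnh1, Cacna1h, Cacna2d1, Grm7, Grik1, Htr7, Slc32a1 and Syt1. The same held for Pou3f2, Pou3f3, Ebf3, Nr5a1, Vax1, Six3, Lhx6, Prok2, Cckbr, Ptprn2, Jund, Plagl1, Impact and Rasgrf1. Both Pa arrays lay above all 6 others in 8.04% of probe sets and below them in 7.02%. Over all 115 genes higher than in each region and with both Pa arrays above, 88 had several probe sets, of which 27 had 2 or more higher and 13 had one that was lower. Of 226 such lower genes, 165 had several, of which 70 had 2 or more lower and 10 had one that was higher.

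**Figure D4:**
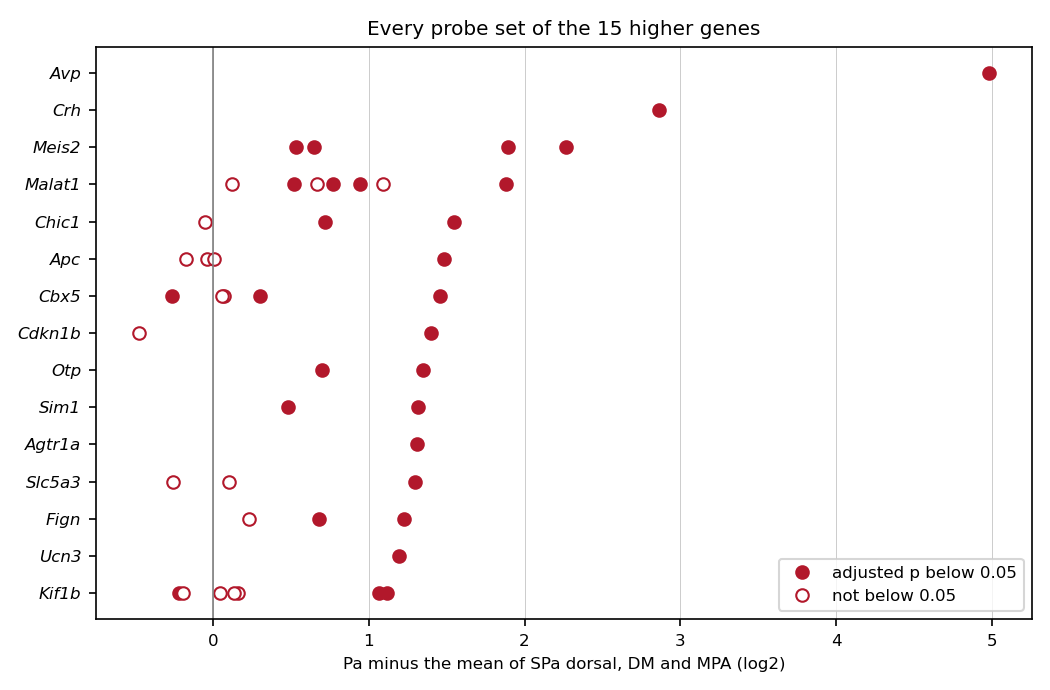
Difference of Pa from the mean of SPa dorsal, DM and MPA on the log2 scale (horizontal axis) for each probe set (points) of the 15 genes most higher in Pa (rows), filled where adjusted p was below 0.05. All probe sets of Meis2, Otp and Sim1 were higher, while Apc, Cdkn1b and Slc5a3 each had 1 higher probe set and others near or below 0.

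Of the 115 higher genes, each taken by its passing probe set that differed most, 16 had their highest mean of the 48 regions in Pa. Apart from Sim1, Agtr1a and Ucn3 these differences were below 1. Adcy7, an adenylyl cyclase, had 9.53 and 9.88 in Pa, against 8.57 and 8.55 in SPa dorsal, 9.05 and 8.84 in DM, and 9.13 and 9.22 in MPA, and LH came close to Pa with 9.67. Ap1s2, an adaptor subunit of vesicle sorting, had 11.71 and 11.82 in Pa, against 10.54 and 10.41 in SPa dorsal, 11.22 and 11.05 in DM, and 11.34 and 11.18 in MPA, with 11.75 in Arc. In both genes the next region was within the spread of the 2 Pa arrays. The developmental factors Hand1 and Gsc were higher by 0.50 and 0.49 (Hand1 with 7.59 on average, next to 7.59 in the mediodorsal thalamus), with Gsc near the low end of the scale at 5.28 and 5.50 in Pa. The others were Cep112, Hamp2, Eif4ebp2, Pcdh12, Zfp703, Agbl4, Gm5547, C130046K22Rik and 1700003P14Rik, with differences between 0.33 and 0.47. On the lower side, 16 of 226 genes had their lowest mean of the 48 regions in Pa, led by Angel2 (-0.84), Cpox, an enzyme of heme synthesis (-0.76), Tm2d2 (-0.68) and Syncrip, an RNA-binding protein (-0.66). Over all probe sets, Pa had the highest mean in 299 and the lowest in 186, while the median region had the highest mean in 717.5. Over all probe sets the regional means of Pa were most like those of the ventral subparaventricular zone (r = 0.9917), then LH (0.9904), MPA (0.9901) and the periaqueductal gray (0.9901), with VMH, DM and Arc before SPa dorsal in place 8 (0.9857). These correlations share the probe effects of 1 array type and are a description.

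Ependymal markers in Pa were higher than in DM and lower than in MPA, and oligodendrocyte markers were lower than in DM. The 17 ependymal and cilia genes had a mean of 8.25 and 8.10 on the Pa arrays, against 8.48 and 8.49 in SPa dorsal, 7.27 and 6.95 in DM, and 8.98 and 8.85 in MPA. All 17 were higher in Pa than in DM, where 8.04% of genes were, and 12 were lower than in MPA, where 7.35% were. Against SPa dorsal 6 were lower (11.7% of genes), and against the mean of the regions 2 were lower (Tekt1 and Meig1), both of which were higher than in DM. The 18 oligodendrocyte genes averaged 8.82 and 9.02 in Pa, against 8.91 and 8.87 in SPa dorsal, 9.70 and 9.90 in DM, and 8.85 and 8.60 in MPA, and 13 of them were lower than in DM, where 14.0% of genes were, with 3 lower than the mean (Cldn11, Ugt8a and Fa2h). Against SPa dorsal 1 was lower, and against MPA 1 was higher. The Pa arrays thus had more signal of ependymal genes and less of oligodendrocyte genes than those of DM, and their part in the other differences was not tested. Against the mean, 3.24% of all genes were higher and 8.97% lower. Higher were 2 of 13 endothelial genes (Cldn5 and Slco1a4) and 1 of 13 microglia genes (Csf1r). Lower were 1 of 13 astrocyte genes (Slc1a2) and 2 of 10 tanycyte genes (Gpr50 and Dio2). Among 11 general neuron genes Syt1 was higher and Syn1 lower, and among 12 choroid plexus genes Kl was higher and Clic6 lower. Csf1r, Slc1a2, Dio2, Kl and Ugt8a had other probe sets that were not called. These differed by -0.004 and 0.001 in Csf1r, between -0.31 and 0.47 in Slc1a2, and by 0.30 and 0.17 in Dio2. In Kl the difference was -0.15 and in Ugt8a -0.01. The 12 choroid plexus genes averaged 7.37 and 6.82 in Pa, against 7.05 and 6.93 in SPa dorsal, 6.67 and 6.60 in DM, and 7.00 and 6.80 in MPA, and 11 of the 12 were higher on the first than on the second Pa array. Their part in the counts, which fell without the first Pa array as given above, was not tested. Of 14 leptomeningeal, 3 blood and 11 thalamic genes, 0 were called by limma in either direction, and at an unadjusted p under 0.05 there were 1 higher and 1 lower, 1 higher, and 2 higher and 1 lower.

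**Figure D5:**
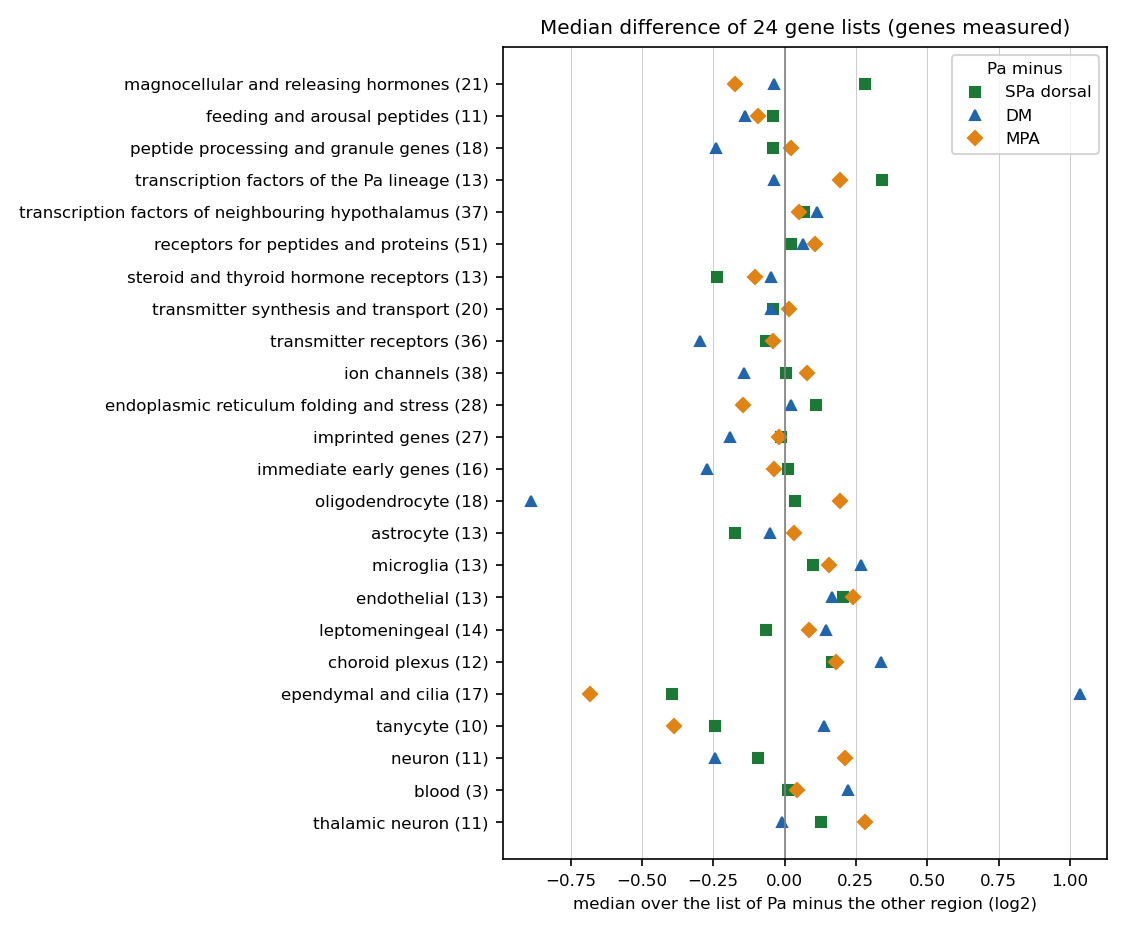
Median over each gene list (rows, number of genes measured in brackets) of the difference of Pa from SPa dorsal (squares), DM (triangles) and MPA (diamonds) on the log2 scale (horizontal axis). Ependymal and oligodendrocyte genes showed the widest split between neighbours, with medians of 1.03 and -0.89 against DM.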

How the data were processed

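The deposited values are log2 expression values, 1 per probe set and array, which the authors made from Affymetrix whole-genome mouse arrays by RMA (the processing notes give no version). With 2 arrays per region, the number of arrays sets the precision. The 64 control probe sets were left out of the tests, and 45,037 were tested. Gene symbols come from the platform annotation: 34,945 probe sets name 1 gene, 932 several and 9,160 none, and only the first were used for genes. Of these, 34,741 had an ID in the RefSeq table, and 0 symbols changed.

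Tests used limma 3.58.1 in R 4.3.3 (lmFit and eBayes, 1 coefficient per region, 48 residual degrees of freedom) on 96 arrays of 48 regions, without retina, pituitary and pineal. The contrast was Pa minus the equal-weight mean of SPa dorsal, DM and MPA, and Pa minus each. The p-values measure the spread between 2 separately sampled pools per region, pooled over the 48 regions, and not the spread among the reference regions. The fit was tested on simulated data. Named genes were the members of 24 lists, each by its probe set with the highest mean, and the 15 genes differing most in each direction that passed in all contrasts with both Pa arrays beyond the other 6, besides those with Pa highest of 48 regions. Genes with the lowest mean in Pa and other probe sets of named genes were named after their values were seen. The members and lists were chosen with earlier results of these data known. The alternatives were 8 arrays only, 2 groups with and without region as a random block, all arrays of 51 regions, the replicate number as a block, cyclic loess, a variance trend with robust eBayes, a highest regional mean of at least 7, each array left out, and other reference regions. Figures used matplotlib 3.10.9 in Python 3.11.15.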

Additional observations from a re-analysis of the deposited data

Results flagged for a closer look

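In 3 of 111 named probe sets 1 of the 6 reference arrays lay far from the other 5. Its gap to the nearest, divided by the whole range, exceeded Dixon's critical value. Chance exceeds that value in about 1 of 20 groups drawn from 1 population. The 6 arrays came from 3 regions, so that rate does not carry over to them. Dio2, the thyroid hormone activating deiodinase, had 6.67 on the second MPA array, below 6.97 to 7.14 on the others (ratio 0.633), and its 6.48 and 6.46 in Pa were still lower. Agt had 10.64 on the second DM array, below 11.06 to 11.27 on the others (ratio 0.666). Kl, the Klotho gene known from choroid plexus, had 6.28 on the second MPA array, below 6.49 to 6.58 on the others (ratio 0.705).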

How the results depend on the processing

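The 30 genes that led the 2 sides were picked on these same arrays, which made their calls with 1 array left out, given above, likely. With each array left out in turn, the probe sets higher in Pa than the mean of the 3 regions numbered 375 to 2205 and the lower ones 598 to 3306, those higher than all 3 regions 74 to 134 and lower 47 to 264, against SPa dorsal 1283 to 3152 higher and 1827 to 3938 lower, against DM 931 to 4181 and 2006 to 5076, and against MPA 435 to 1669 and 947 to 2809. The lowest against SPa dorsal came without its first array, against DM without its first array, and against MPA without its second array (higher) and without the first Pa array (lower). With the 8 arrays in 2 groups 1 was higher and 1 lower. With region as a random block 0 were higher and 1 lower (unadjusted p under 0.05 by limma: 506, or 1.12%, and 873, or 1.94%). With other reference regions some differences changed sign. Without SPa dorsal these were Nr0b1 (0.065), Nr5a1 (0.17), Trh (-0.33), Grik1 (-0.16), Fezf1 (0.78) and Cckbr (0.11), without DM Hcrt (0.64) and Peg10 (0.11), and without MPA Prok2 (0.006), Meig1 (0.14) and Pmch (-0.20). Against the other 11 hypothalamic regions these were Hcrt (0.15), Meig1 (0.32), Six3 (-0.002), Tekt1 (0.17), Ptprn2 (0.008) and Cckbr (0.19). The replicate numbers did not pair the arrays (correlations of their deviations between -0.334 and 0.101), and with the replicate number as a block 1750 were higher and 2975 lower, with all 111 named probe sets called as before. The counts for 8 arrays, all arrays of 51 regions, cyclic loess, the variance trend and the level filter stayed within 1.5 times, and so did those with other reference regions. The cause of these changes was not tested.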

Other observations

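Some differences from the mean of the 3 regions lay outside the genes described above. These were chosen after their values were seen. Oas1c had 6.23 and 6.43 in Pa, against 8.69 and 8.93 in SPa dorsal, 10.67 and 10.19 in DM, and 6.04 and 6.26 in MPA, a difference of -2.14 ± 0.29 (adjusted p = 4.64e-07 by limma) that came from SPa dorsal and DM. Arl2bp was likewise highest in DM with 2 probe sets, which differed in Pa by -2.21 ± 0.28 and -1.61 ± 0.17. Another Ttr probe set had 12.96 on the first and 9.35 on the second Pa array, against 7.21 to 10.18 on the 6 reference arrays, and its difference of 1.96 ± 0.87 did not pass (adjusted p = 0.138).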
